A study of Mus musculus with 9 samples.

Results

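Ahsa1 and 9 genes of the heat shock chaperone machinery (Hsp90aa1, Hsp90ab1, Hspa8, Hspa1a, Hspa1b, Hsph1, Dnajb1, Hsf1, and Stip1) were examined in primary mouse microglia after knockdown of Chd8 or Tsc2. Ahsa1 was selected on its level, because it had been seen to be higher in Chd8 siRNA-treated than in control siRNA-treated microglia. The other 9 genes were taken as its relatives in the chaperone machinery. All 10 were in the table, which held 54119 genes after the transcripts of each gene were summed, and all 10 were among the 16273 genes with enough counts to be tested. The 9 libraries of total RNA came from primary microglia of C57BL/6J mice, shaken off mixed glial cultures of late embryonic brains, and the sex of the animals was not given in the sources used here. The cells received a negative control siRNA, Chd8 siRNA, or Tsc2 siRNA by lipofection, with 3 libraries per group and the numbers 1, 2, and 3 in each group. RNA was isolated after 3 days. Lipopolysaccharide, a bacterial component that activates microglia, is named for this experiment in the study's results but neither in its RNA-seq methods nor in the sample descriptions. All groups shared the strain, the type of culture, and the transfection procedure, and no untransfected cells were compared. Whether libraries with the same number came from the same culture is not given in the sources used here.

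Heat shock proteins are molecular chaperones, which help other proteins to fold and keep them from aggregating. HSP70 proteins bind unfolded stretches with the help of J-domain proteins, and HSP90 takes over clients from HSP70 at a later stage of folding. AHSA1 binds HSP90 and stimulates its ATPase activity, and STIP1 (also called HOP) holds HSP70 and HSP90 together during the transfer. HSF1 is the main transcription factor of the heat shock response and raises the genes of many chaperones under stress. In microglia, stress proteins are also studied for their part in inflammatory activation. CHD8 is an ATP-dependent chromatin remodeler, and TSC2 is part of the complex that restrains the growth kinase mTORC1. Small interfering RNAs (siRNAs) trigger the breakdown of the mRNA whose sequence they match.

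Total counts ranged from 16913448 to 33213801 per library, and levels are given as CPM, counts relative to library size after TMM scaling. Chd8 was at 117.9, 97.4, and 93.6 CPM in control libraries 1 to 3 and at 86.8, 44.5, and 38.3 CPM in the Chd8 siRNA libraries, so that number 1 kept 0.737 of its control level and numbers 2 and 3 kept 0.457 and 0.409. Tsc2 was at 40.8, 39.9, and 38.9 CPM in the control libraries and at 24.6, 30.6, and 36.5 CPM in the Tsc2 siRNA libraries, which is between 0.603 and 0.937 of the control with the same number. Both targeted genes were lower in 3 of 3 same-number pairs, by unequal amounts. Chd8 in Chd8 siRNA against control was called with the replicate number in the edgeR fit (adjusted p = 0.00777) and not without it (0.9999), and with 1 library left out in turn it was called in 3 of 6 fits with the number, but not without control number 2, control number 3, or Chd8 siRNA number 2 (log2 fold changes of −1.21 to −0.73). Tsc2 in Tsc2 siRNA against control was called in neither fit of all libraries (adjusted p = 0.219 and 0.9996). All 12 microglia markers had counts in every group, and summed to 2438 to 3067 CPM in control, 2678 to 3412 CPM in Chd8 siRNA, and 2999 to 3238 CPM in Tsc2 siRNA libraries. In the same order of groups, astrocyte markers summed to 14.6 to 106.4, 13.6 to 47.1, and 11.99 to 50.97 CPM, and neuron markers to 4.22 to 15.3, 2.61 to 9.502, and 2.81 to 3.41 CPM. Oligodendrocyte lineage markers summed to 20.4 to 31.2, 20.98 to 29.4, and 13.6 to 27.1 CPM, and fibroblast and vessel markers to 51.2 to 100.3, 57.8 to 67.1, and 51.9 to 80.7 CPM. With the replicate number in the edgeR fit of Chd8 siRNA against control, 1 of 5 tested fibroblast and vessel markers was called lower and 0 higher. Of all tested genes, 0.535% were called in that fit. The highest astrocyte and neuron sums were in control libraries, the neuron sums of Tsc2 siRNA libraries all lay below those of control, and the part of these cells in the results was not tested. In bulk RNA, fewer cells that express a gene and less RNA per cell cannot be told apart.

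The 9 genes other than Ahsa1 were not called different in any of the 3 comparisons, in edgeR fits of all libraries with or without the replicate number as a term. Ahsa1, which was selected as higher after Chd8 siRNA, was at an intermediate level after Tsc2 siRNA that was not called either. Calls required an FDR below 0.05 and more than a 1.5-fold difference in edgeR's quasi-likelihood test over all tested genes. With the siRNA as the only term in the fit, 0 of 10 chaperone genes were called in Chd8 siRNA against control, in Tsc2 siRNA against control, and in Chd8 siRNA against Tsc2 siRNA, and the share of all tested genes called was 0% in each. At an unadjusted p under 0.05 this fit gave 622, 425, and 504 genes in these comparisons, of which 1 (Ahsa1 itself), 0, and 0 were chaperone genes described here. DESeq2 called 9, 6, and 5 genes and none of the 10, and limma-voom called 0 in each. Libraries with the same number deviated together from their group means, and with the number as a block in the edgeR fit, 1 of 10 was called in Chd8 siRNA against control against 0.535% of all tested genes. That gene was Ahsa1 itself, which was selected on this comparison, so that nothing is read from the count. With the block, 0 of 10 were called in Tsc2 siRNA against control and 0 of 10 in Chd8 siRNA against Tsc2 siRNA, where 0.387% and 0.221% of tested genes were. At an unadjusted p under 0.05 the block gave 2091, 1737, and 1745 of the 16273 tested genes in the 3 comparisons, in the same order. Of the 9 genes other than Ahsa1, 2, 3, and 2 were among them.

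The groups of 3 libraries did not overlap for 2 of 10 genes in Chd8 siRNA against control (Ahsa1 and Hsp90ab1), where 9.09% of all tested genes did not overlap. They did not overlap for 1 of 10 (Hspa8) in Tsc2 siRNA against control, where 8.11% of tested genes did not. In Chd8 siRNA against Tsc2 siRNA they did not overlap for 2 of 10 (Hsp90aa1 and Hsp90ab1), against 8.44% of tested genes. The comparisons share libraries in pairs, so that their values for one gene are not independent.

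Ahsa1 (chr12:87266479-87273998, plus strand, GRCm38) encodes the activator of the HSP90 ATPase. It was at 56.4, 62.6, and 42.6 CPM in control libraries 1 to 3, at 83.2, 103.1, and 71.1 CPM in the Chd8 siRNA libraries, and at 71.8, 75.6, and 58.9 CPM in the Tsc2 siRNA libraries. Every Chd8 siRNA library was above every control library, and at each of the 3 numbers the order was control, Tsc2 siRNA, Chd8 siRNA from low to high. The means were 53.9 ± 10.2, 85.8 ± 16.2, and 68.8 ± 8.73 CPM (SD, n = 3) in control, Chd8 siRNA, and Tsc2 siRNA. The ratio of Chd8 siRNA to control was 1.47, 1.65, and 1.67 at numbers 1 to 3. This is the difference on which the gene was selected, so that its size and its calls are a description and support nothing.

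In Tsc2 siRNA-treated microglia Ahsa1 was between 1.21 and 1.38 times the control with the same number, higher in 3 of 3 pairs. The log2 fold change was 0.35 ± 0.19 (SE) in the fit without the block, and was not called (edgeR's quasi-likelihood test, Benjamini-Hochberg adjusted p = 0.9996). With the block it was 0.36 ± 0.09 (adjusted p = 0.0957). The 95% interval of the fold was 0.955 to 1.70 without the block and 1.13 to 1.47 with it, so that a change past 1.5-fold lies outside the narrower interval. Chd8 siRNA-treated microglia were above Tsc2 siRNA-treated microglia by a log2 fold change of 0.32 ± 0.19, or 0.31 ± 0.09 with the block, which was not called either (edgeR, adjusted p = 0.9998 and 0.163). These comparisons share the control or the Chd8 siRNA libraries with the one that selected the gene.

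**Figure D1:**
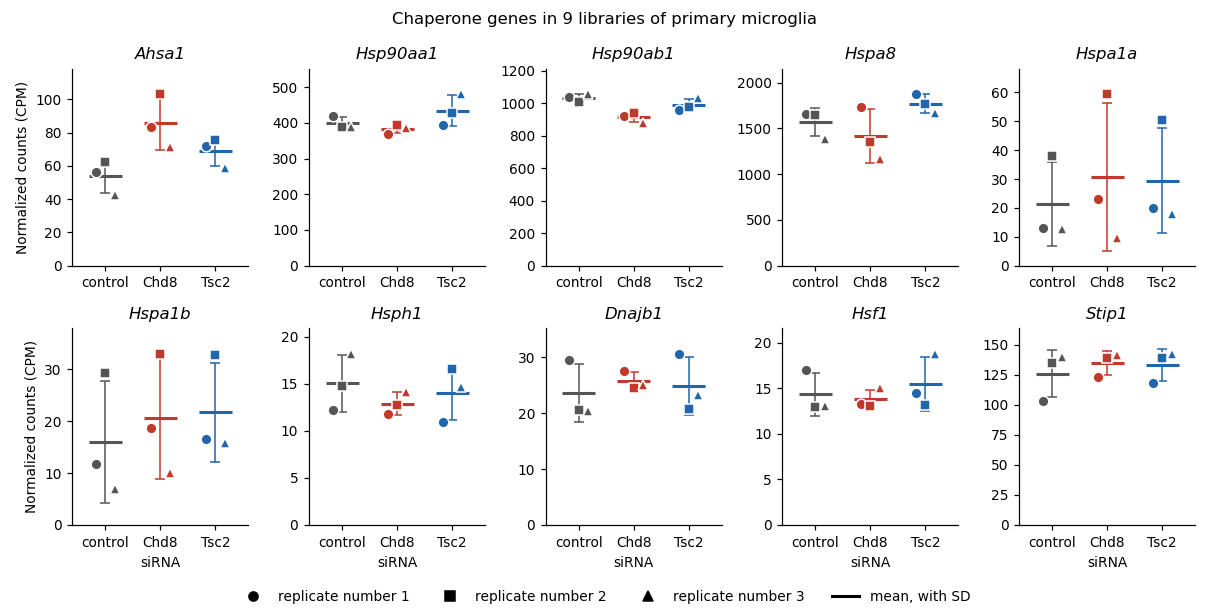
Normalized counts (CPM, vertical axes from 0, each with its own range) of the 10 chaperone genes by siRNA in 9 libraries. Points are single libraries with the shape giving the replicate number, thick lines are means, and bars are SD of 3. The Ahsa1 points of Chd8 siRNA lie above all control points, the HSP90 genes lie in narrow bands, and the squares (number 2) of Hspa1a and Hspa1b lie above the other points in every group.

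The HSP90 genes, whose proteins are the partners of AHSA1, were not called in any comparison. Hsp90ab1 (chr17:45567775-45573271, minus strand) encodes the constitutive cytosolic HSP90, and was at 1039, 1010, and 1056 CPM in control, at 922, 943, and 879 CPM in Chd8 siRNA, and at 958, 979, and 1030 CPM in Tsc2 siRNA libraries. All 3 Chd8 siRNA libraries lay below all libraries of both other groups, by a small margin. The log2 fold change against control was −0.18 ± 0.10 (SE) and the exact two-sided permutation test of 3 against 3 libraries gave p = 0.1, the smallest it allows. The call did not pass (edgeR, adjusted p = 0.9999, and 0.207 with the block), and the 95% interval of the fold was 0.759 to 1.03, or 0.807 to 0.969 with the block. Hsp90ab1 was below control in 3 of 3 same-number pairs after Chd8 siRNA (ratios of 0.833 to 0.934) and after Tsc2 siRNA (0.922 to 0.976). In Tsc2 siRNA against control the log2 fold change was −0.07 ± 0.10.

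Hsp90aa1 (chr12:110690605-110702728, minus strand) encodes the stress-inducible cytosolic HSP90. Its level was 419.5, 389.0, and 389.0 CPM in control, 369.7, 392.5, and 384.2 CPM in Chd8 siRNA, and 394.3, 428.4, and 480.0 CPM in Tsc2 siRNA libraries. The Chd8 siRNA libraries lay within or below the control range, and all 3 were below all 3 Tsc2 siRNA libraries. From control it differed by a log2 fold change of −0.06 ± 0.11 after Chd8 siRNA, with a 95% interval of the fold from 0.806 to 1.137, and of 0.12 ± 0.11 after Tsc2 siRNA, with an interval from 0.916 to 1.29. Between the knockdowns it was −0.18 ± 0.11 and was not called (edgeR, adjusted p = 0.9998, and 0.398 with the block). Intervals of both HSP90 genes thus exclude a 1.5-fold change in each of the 3 comparisons.

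Stip1 (chr19:7020702-7039967, minus strand), the adaptor between HSP70 and HSP90, was at 103.5, 134.7, and 139.7 CPM in control, at 122.9, 139.2, and 141.6 CPM in Chd8 siRNA, and at 118.2, 138.6, and 142.6 CPM in Tsc2 siRNA libraries. Number 1 was the lowest in all 3 groups, and the groups overlapped. Stip1 differed from control by a log2 fold change of 0.10 ± 0.14 after Chd8 siRNA and 0.08 ± 0.14 after Tsc2 siRNA, and by 0.01 ± 0.14 between the knockdowns. Both knockdowns were above control in 3 of 3 same-number pairs, by ratios of 1.01 to 1.19, and no comparison was called. The 95% intervals of the fold ended at 1.33 or below in these comparisons.

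Hspa8 (chr9:40800984-40810087, plus strand) encodes the constitutive HSP70 protein HSC70 and had the highest level of the 10 genes. It was at 1659, 1651, and 1388 CPM in control, at 1735, 1353, and 1165 CPM in Chd8 siRNA, and at 1872, 1770, and 1669 CPM in Tsc2 siRNA libraries. The Tsc2 siRNA libraries were all above the control libraries, while the Chd8 siRNA libraries spread from below to above them. Against control, the log2 fold change of Hspa8 was 0.18 ± 0.16 after Tsc2 siRNA and −0.14 ± 0.16 after Chd8 siRNA. Between the knockdowns Chd8 siRNA was lower in 3 of 3 same-number pairs, by ratios of 0.698 to 0.926, with a log2 fold change of −0.32 ± 0.16 that was not called (edgeR, adjusted p = 0.9998, and 0.0802 with the block). In the edgeR fits of all libraries, this was the lowest adjusted p of the 9 genes other than Ahsa1.

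Hspa1a (chr17:34969190-34972156, minus strand) and Hspa1b (chr17:34956436-34959238, minus strand) encode the heat-inducible HSP70 and are neighbors on chromosome 17. Hspa1a was at 13.01, 37.99, and 12.87 CPM in control, at 23.01, 59.4, and 9.71 CPM in Chd8 siRNA, and at 20.1, 50.5, and 17.9 CPM in Tsc2 siRNA libraries. Hspa1b was at 11.8, 29.4, and 6.99 CPM in control, at 18.7, 33.04, and 9.996 CPM in Chd8 siRNA, and at 16.5, 32.8, and 15.8 CPM in Tsc2 siRNA libraries. For both genes number 2 was the highest library of every group, and the groups overlapped. Over all libraries the highest value of Hspa1a was 6.12 times the lowest, and that of Hspa1b 4.72 times, against 1.20 times for Hsp90ab1.

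Levels of Hspa1a and Hspa1b are uncertain as separate values, since the counting could split reads between them. Their coding sequences of 1923 and 1926 bases differed at 8 aligned positions and by 3 gap bases (99.43% identity), and 38.1% of all 150-base windows of the Hspa1a transcript were found unchanged in the Hspa1b transcript. No 150-base window of Hspa1a was found in Hspa8, and none of Hsp90aa1 in Hsp90ab1. Added together, Hspa1a and Hspa1b were at 24.8, 67.4, and 19.9 CPM in control, at 41.7, 92.4, and 19.7 CPM in Chd8 siRNA, and at 36.5, 83.3, and 33.7 CPM in Tsc2 siRNA libraries, with between 49.3% and 64.8% of the sum assigned to Hspa1a. The sum therefore showed the same high number 2 in each group.

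Neither gene was called in any comparison with all libraries in the edgeR fit. Without the block the intervals were wide, and the fold of Hspa1a in Chd8 siRNA against control lay between 0.512 and 4.06, so that a fall to 0.512 of control and a rise to 4.06 times both lie within the interval. Compared at the same number, Hspa1b was higher than control in 3 of 3 pairs after Chd8 siRNA (ratios of 1.12 to 1.59) and in 3 of 3 after Tsc2 siRNA (1.12 to 2.26). Hspa1a was higher in 3 of 3 pairs after Tsc2 siRNA (1.33 to 1.54) and in 2 of 3 after Chd8 siRNA (0.754 to 1.77). With the block the log2 fold change of the sum was 0.43 ± 0.15 in Chd8 siRNA and 0.55 ± 0.15 in Tsc2 siRNA against control (edgeR, adjusted p = 0.233 and 0.145). Leaving out the Chd8 siRNA library number 3 with the block gave Hspa1a a log2 fold change of 0.73 and a call in Chd8 siRNA against control (edgeR, adjusted p = 0.044). That library belongs to the pair with the ratio of 0.754, and Hspa1a was called in only 1 of 6 such fits. Without the block, leaving out the Chd8 siRNA library number 2 gave a log2 fold change of −0.37.

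The upstream sequences of Hspa1a and Hspa1b are shown because the windows of these near-identical neighbors hold the same letters of the heat shock element, the sequence that HSF1 is known to bind. They are the 250 bases before the RefSeq start, on the minus strand of GRCm38.p6, at chr17:34972157-34972406 and chr17:34959239-34959488, and hold no exon annotated in GENCODE release M21. The capitals mark a pair of inverted heat shock units, GAANNTTC.
Hspa1a: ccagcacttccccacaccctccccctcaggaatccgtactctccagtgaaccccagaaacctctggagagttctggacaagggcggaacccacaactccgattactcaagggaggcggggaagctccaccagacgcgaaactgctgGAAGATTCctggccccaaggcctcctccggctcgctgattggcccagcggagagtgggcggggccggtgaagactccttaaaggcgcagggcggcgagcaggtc
Hspa1b: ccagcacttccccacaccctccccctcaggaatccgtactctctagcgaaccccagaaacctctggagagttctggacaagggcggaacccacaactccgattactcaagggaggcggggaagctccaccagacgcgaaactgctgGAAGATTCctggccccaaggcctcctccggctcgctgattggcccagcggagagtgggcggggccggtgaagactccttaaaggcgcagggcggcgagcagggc

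The 2 windows differed at 3 of 250 bases (98.8% identity), and the first base of the pair lay 104 bases before the start in both. Either arrangement of the pair, GAANNTTC or TTCNNGAA, each of which reads the same on both strands, was found in 12.8% of the 32851 windows of the same length. The upstream table held 6 of the 10 genes. Of these, Hspa1a, Hspa1b, and Hsph1 held a pair, and Ahsa1, Dnajb1, and Stip1 did not, and none held 3 alternating units, which 0.466% of all windows did. A window without the pair says only that these letters were not in those 250 bases, and the windows of Ahsa1 and Hsph1 overlap annotated exons of the same gene, and those of Dnajb1 exons of Tecr or Dnajb1.

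Hsph1 (chr5:149614287-149636376, minus strand) encodes the HSP110 protein that exchanges nucleotide on HSP70. It was at 12.2, 14.8, and 18.2 CPM in control, at 11.8, 12.8, and 14.2 CPM in Chd8 siRNA, and at 10.9, 16.5, and 14.7 CPM in Tsc2 siRNA libraries. Number 1 was the lowest in each group. Relative to control, log2 fold changes were −0.22 ± 0.21 after Chd8 siRNA and −0.10 ± 0.21 after Tsc2 siRNA, and neither was called. Hsph1 was above control in 0 of 3 same-number pairs after Chd8 siRNA (ratios of 0.778 to 0.965) and in 1 of 3 after Tsc2 siRNA (0.808 to 1.12).

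Dnajb1 (chr8:83608193-83612653, plus strand) encodes the J-domain partner of HSP70. It was at 29.6, 20.6, and 20.5 CPM in control, at 27.6, 24.5, and 25.1 CPM in Chd8 siRNA, and at 30.6, 20.7, and 23.2 CPM in Tsc2 siRNA libraries. Number 1 was the highest in each group, opposite to Hsph1. Its log2 fold change from control was 0.13 ± 0.20 after Chd8 siRNA and 0.08 ± 0.20 after Tsc2 siRNA, and neither was called.

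Hsf1 (chr15:76477422-76501913, plus strand), the transcription factor, was at 17.04, 12.93, and 13.04 CPM in control, at 13.3, 13.1, and 14.97 CPM in Chd8 siRNA, and at 14.5, 13.1, and 18.8 CPM in Tsc2 siRNA libraries. The groups overlapped, and no number was the highest in all of them. Differences from control were −0.06 ± 0.19 after Chd8 siRNA and 0.11 ± 0.19 after Tsc2 siRNA on the log2 scale, with 95% intervals of the fold from 0.711 to 1.296 and from 0.801 to 1.46. HSF1 is known to be activated largely at the level of the protein, which was not measured.

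**Figure D2:**
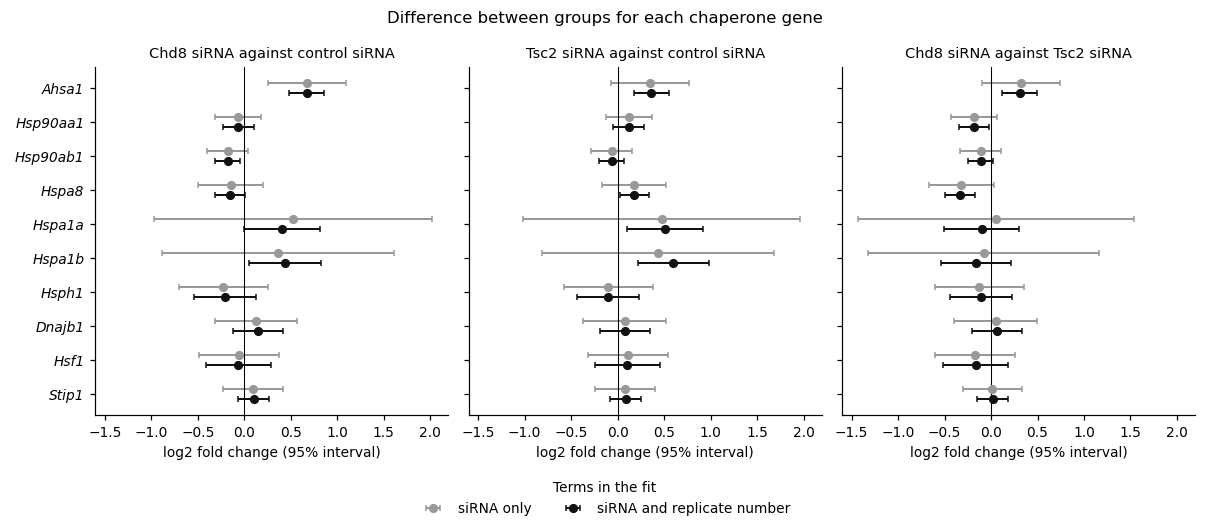
Log2 fold change of each chaperone gene (horizontal axis, with 95% intervals) in the 3 comparisons, from edgeR fits with the siRNA only (gray) and with the siRNA and the replicate number (black). The Ahsa1 value in Chd8 siRNA against control selected that gene and is a description. The gray intervals of Hspa1a and Hspa1b are the widest and those of the HSP90 genes the narrowest.

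The replicate number, which the sample descriptions give to each group, accounted for most of the spread of 5 genes. It held 85.8% of the variance of log2 CPM over the 9 libraries for Hspa1a, 81.4% for Hspa1b, 82.1% for Stip1, 76.1% for Dnajb1, and 65.3% for Hsph1. Over all tested genes the median share was 41.9% for the number and 18.0% for the siRNA. Shares at least as large as those of Hspa1a and Hspa1b were found in 8.10% and 11.6% of tested genes.

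The siRNA held the larger share for Hsp90ab1 (78.9%, against 0.966% for the number) and Hsp90aa1 (49.0% against 8.68%). For Hspa8 the shares were 43.4% and 41.8%, and for Hsf1 12.3% and 31.5%. For Hsf1, 56.2% of the variance was left after both. For Ahsa1 the shares were 64.1% and 33.8%, with 2.17% left, and they hold the difference that selected the gene, so that they are a description and are not ranked with the others. Its level was the highest at number 2 in every group. The sets of high numbers differed between genes, with number 2 highest for Hspa1a, Hspa1b, and Ahsa1, number 1 for Dnajb1, and number 3 for Stip1.

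**Figure D3:**
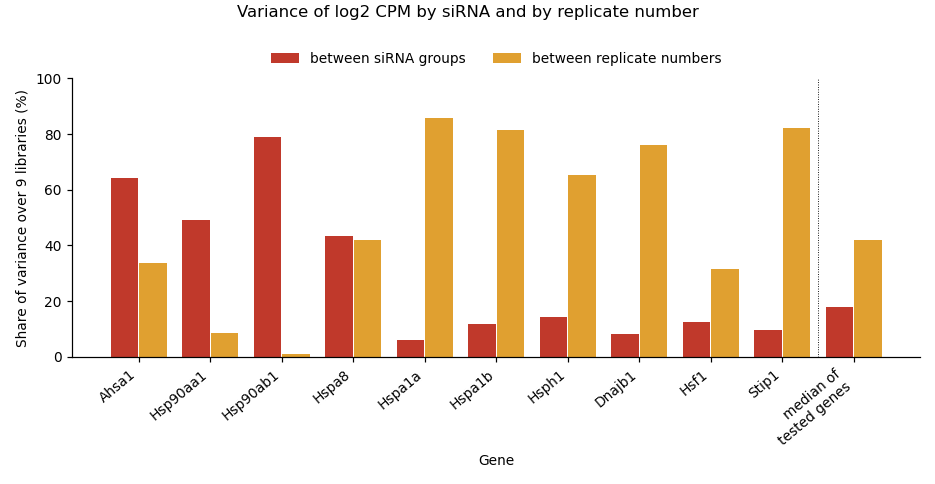
Share of the variance of log2 CPM over 9 libraries (percent, vertical axis) that lay between siRNA groups (red) and between replicate numbers (yellow), for each chaperone gene and as the median of all 16273 tested genes. The HSP90 genes, and Ahsa1 which was selected on 1 siRNA difference, have the higher red bars, and Hspa1a, Hspa1b, Hsph1, Dnajb1, and Stip1 have the higher yellow bars.

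Levels were compared between genes per transcript length, in TPM recomputed from the counts and the annotated lengths. The order of mean levels over the 9 libraries was Hspa8 (342.2 TPM), Hsp90ab1 (202.8), Hsp90aa1 (77.5), Stip1 (32.2), Ahsa1 (25.3), Hspa1a (4.46), Dnajb1 (4.28), Hsf1 (3.52), Hspa1b (3.44), and Hsph1 (2.19). Hsp90ab1 and Hsp90aa1, Hsp90aa1 and Stip1, and Ahsa1 and Hspa1a had ranges that did not overlap. Stip1 was above Ahsa1 in 7 of 9 libraries, and Hspa8 was above Hsp90ab1 in 9 of 9 although their ranges overlapped. From Hspa1a down to Hsph1 the ranges of neighbors overlapped, and Hspa1a was above Dnajb1 in 3 of 9 libraries only. The inducible HSP70 genes were thus at a low level beside the constitutive Hspa8 in all libraries.

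Most of the Ahsa1 counts came from protein-coding transcripts, which held 93.2% of them over all libraries and between 88.6% and 96.1% in single libraries. The main coding transcript of 1377 bases held 88.2%, 91.6%, and 88.8% of the Ahsa1 counts in control, Chd8 siRNA, and Tsc2 siRNA, and the share of transcripts with a retained intron was 7.13%, 6.06%, and 7.41%. Counted from the transcript with the highest mean count alone, the log2 fold change of Ahsa1 was 0.71 in Chd8 siRNA against control, also a description, against 0.67 for the sum. Of the Hsf1 counts, 62.2% were assigned to coding transcripts, with 51.0% to 80.2% in single libraries. Transcripts with a retained intron held 22.9%, and ones marked for nonsense-mediated decay 13.1%. Stip1, Dnajb1, Hspa1a, and Hspa1b had 100% of their counts in coding transcripts, because no other type was annotated among their counted transcripts. For Hsph1 and Hsf1, the estimates moved between transcripts from library to library, and their transcript shares are not interpreted here.

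None of the other chaperones was called in edgeR fits of all libraries with or without the block. Of 100 genes in 10 lists (HSP90 proteins, HSP90 co-chaperones, HSP70 and HSP110 proteins, J-domain proteins, nucleotide exchange factors, heat shock factors, small heat shock proteins, chaperonins, ER folding genes, and heat-inducible HSF1 targets), 90 were tested, and with the siRNA only 0 were called in each of the 3 comparisons. At an unadjusted p under 0.05, edgeR gave 7, 0, and 3 of them in Chd8 siRNA against control, Tsc2 siRNA against control, and Chd8 siRNA against Tsc2 siRNA, beside 622, 425, and 504 of all 16273 tested genes. The 7 include the selected Ahsa1, and without the 10 members the count was 6 of 80 tested genes. With the block the counts were 15, 8, and 15 of the 90, each with Ahsa1 among them, beside 2091, 1737, and 1745 of all tested genes. With the block, 1 of 90 was called in Chd8 siRNA against control (the selected Ahsa1) and 0 of 90 in each of the others, beside 0.535%, 0.387%, and 0.221% of all tested genes. The median log2 fold change of the 90 genes was 0.06 in Chd8 siRNA against control, 0.03 in Tsc2 siRNA against control, and 0.02 between the knockdowns, where the medians of all tested genes were −0.02, −0.02, and 0.00.

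Among the HSP90 co-chaperones, the list to which Ahsa1 and Stip1 belong, 13 of 23 had a log2 fold change above 0 in Chd8 siRNA against control, and the median was 0.05. Fkbp4, which encodes a peptidyl-prolyl isomerase that binds HSP90, was at 9.24, 11.3, and 12.9 CPM in control and at 7.10, 5.61, and 7.20 CPM in Chd8 siRNA libraries. These groups did not overlap, in the opposite direction to Ahsa1. Its log2 fold change was −0.74 ± 0.22 and was not called in edgeR (adjusted p = 0.9999, and 0.0978 with the block), while DESeq2 with the block called it. Fkbp5, another isomerase of this kind, was at 9.09, 8.74, and 8.88 CPM in control and at 7.50, 6.06, and 6.62 CPM in Chd8 siRNA libraries, with a log2 fold change of −0.40 ± 0.21 that was not called. Tomm70a, the mitochondrial import receptor that takes clients from HSP90, had a log2 fold change of 0.23 ± 0.12 in Tsc2 siRNA and −0.02 ± 0.12 in Chd8 siRNA against control, and was not called.

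Of the HSP70 system, Bag6, a BAG-domain chaperone that handles misplaced membrane proteins, was at 141.1, 162.0, and 136.2 CPM in control, at 164.3, 231.3, and 214.6 CPM in Chd8 siRNA, and at 129.5, 134.8, and 143.3 CPM in Tsc2 siRNA libraries. Every Chd8 siRNA library was above every library of the other groups. With the block, its log2 fold change was 0.46 ± 0.09 in Chd8 siRNA against control and 0.57 ± 0.09 in Chd8 siRNA against Tsc2 siRNA (edgeR, adjusted p = 0.0281 and 0.0208). Both passed the FDR and fell short of the 1.5-fold threshold. In the fit without the block neither passed the FDR.

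Hspa5, the HSP70 of the endoplasmic reticulum, was at 724 ± 78.1 CPM in control and 849 ± 72.2 CPM in Chd8 siRNA (SD, n = 3), with a log2 fold change of 0.23 ± 0.14 that was not called. Hspa4l, an HSP110-type protein, ranged from 12.04 to 51.99 CPM, with number 1 the lowest in each group, and was not called. Dnaja1, a J-domain protein, had a log2 fold change of 0.22 ± 0.11 in Tsc2 siRNA against control, and the chaperonin subunit gene Cct4 one of −0.32 ± 0.15 in Chd8 siRNA against Tsc2 siRNA, and neither was called. Dnaja4, the J-domain gene that stands apart in the plot of lists and was chosen after its values were seen, had a log2 fold change of 1.93 ± 0.63 in Chd8 siRNA against control with the block and was not called (edgeR, adjusted p = 0.176). Among the 13 J-domain genes, the highest log2 fold change in Tsc2 siRNA against control was 1.37 with the block, and none was called. Of the 15 ER folding genes, 12 had a log2 fold change above 0 in Chd8 siRNA against control, with a median of 0.18, and 7 in Tsc2 siRNA against control, with a median of −0.0036, and none was called with or without the block. Small heat shock proteins summed to 2.43 to 20.1 CPM per library, with 3 of 9 tested and 2 of 9 at 0 in every library.

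Of the 24 genes known as heat-inducible targets of HSF1, 23 were tested and 12 had a log2 fold change above 0 in Chd8 siRNA against control, with a median of 0.08. In Tsc2 siRNA against control 13 were above 0, with a median of 0.03. With the block 1 of 23 was called in Chd8 siRNA against control, which was the selected Ahsa1, and 0 in Tsc2 siRNA against control and in Chd8 siRNA against Tsc2 siRNA, where 0.535%, 0.387%, and 0.221% of all tested genes were called. This list holds Ahsa1, 8 more of the 10 chaperone genes, and Fkbp4, Hspa4l, and Dnaja1, so that it is not separate from the genes described above.

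**Figure D4:**
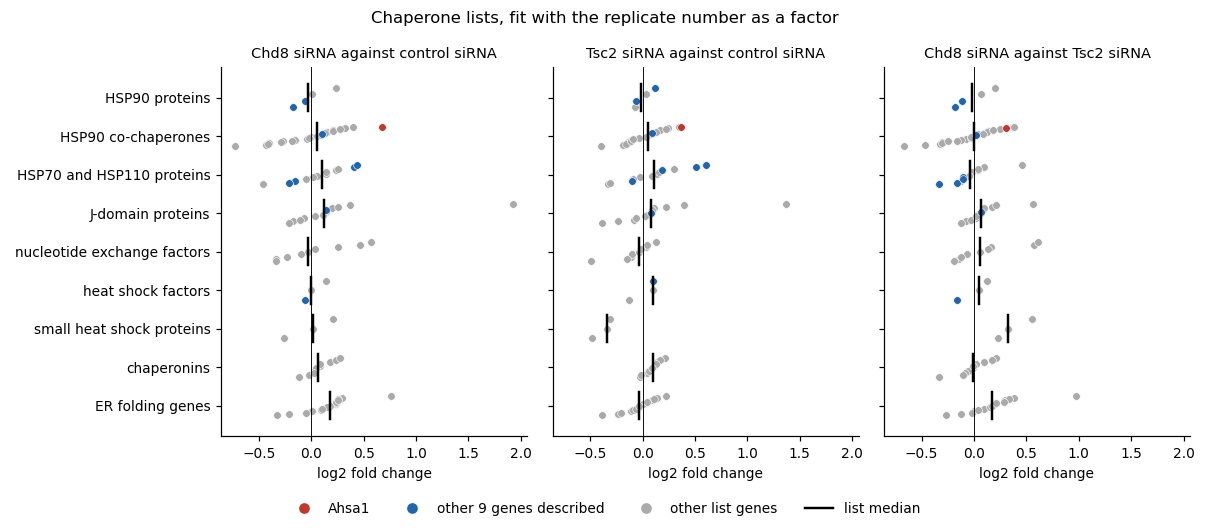
Log2 fold change (horizontal axis) of the tested genes of each chaperone list in the 3 comparisons, from the edgeR fit with the siRNA and the replicate number. Points are genes, black bars are list medians, Ahsa1 is red, and the other 9 genes described are blue. Ahsa1 has the highest value among HSP90 co-chaperones in Chd8 siRNA against control, and the list medians run from −0.34 (small heat shock proteins, 3 genes, in Tsc2 siRNA against control) to 0.33 (the same list in Chd8 siRNA against Tsc2 siRNA).

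The 5 genes most like Ahsa1 over the 9 libraries were not chaperones, from which nothing is read. The chaperone lists held only 100 genes beside the 5914 searched, and the profile of Ahsa1 holds the difference that selected it. Likeness was measured as the root mean square difference of log2 CPM after each gene was centered on its mean, over 5914 protein-coding genes with a mean of at least 10 CPM. The nearest were Ptpn18, a protein tyrosine phosphatase gene (0.0907), Evi2a (0.114), Kremen1, a receptor gene of the Wnt pathway (0.132), Chmp1a, a gene of the ESCRT membrane machinery (0.138), and Fbxo6, which encodes a ubiquitin ligase subunit for glycoproteins (0.143). Ptpn18 was at 10.9 ± 2.03 CPM in control, 18.6 ± 3.61 CPM in Chd8 siRNA, and 14.9 ± 3.08 CPM in Tsc2 siRNA (SD, n = 3), and its likeness to Ahsa1 over these libraries is what it was picked for. Of the other 9 chaperone genes, Dnajb1 was the nearest, with 36.4% of all searched genes nearer to Ahsa1 than it was, and Hspa1a the farthest, with 94.98%.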

How the data were processed

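The authors quantified reads with salmon 0.14.1 on mm10 and tximport and deposited estimated counts per transcript, not normalized. The annotation release is not given in the sources used here. Library preparation is described as Illumina total RNA in the methods and as a stranded SMARTer kit in the labels. The methods state that each biological replicate was a culture from a distinct brain. The study's own tests used DESeq2 with thresholds of 0.05 (FDR) and 1.5 (fold), which were kept here.

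Counts were rounded, and 139852 of 140948 transcripts were summed to genes by GENCODE release M21 (the rest held 0.27% of counts). Genes were filtered with filterByExpr, scaled by TMM, and tested with edgeR 4.0.16 (R 4.3.3), with all 9 libraries and the siRNA as the only term. Samples were grouped by the siRNA in the labels. Single values used exact permutation tests on log2(CPM + 0.5). The replicate block uses the numbers in the sample titles. Over tested genes, deviations from group means correlated with r of 0.337 to 0.628 in all 9 same-number pairs, and genes are not independent replicates. The mean r between other pairs was −0.231. Centering each group on its mean forces such a negative value where same-number pairs are positive, so that it is no separate support. No library pair of a group agreed within sampling noise. A count of 3, taken as detected, was 0.0903 to 0.177 CPM, which covers counting error only. TPM used annotated lengths.

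The named genes are the 10 members, chaperone genes called in either fit, for each comparison the 2 higher and 2 lower other chaperone genes with the lowest p with the block, the 5 genes nearest to Ahsa1, and the targeted genes. The members and lists were chosen with earlier results of these data known. Alternatives were the block, RLE size factors, no count filter, DESeq2 1.42.0, limma-voom (limma 3.58.1), fits of 2 groups, the highest transcript, no fold threshold, other pseudocounts and CPM minimums, and libraries left out. Tests were tried on simulated data. Figures used matplotlib 3.10.9.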

Additional observations from a re-analysis of the deposited data

How the results depend on the processing

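Of the results, the call of Ahsa1 depended on the replicate number as a term. In Chd8 siRNA against control the replicate block, DESeq2 with the replicate block, the block with Hspa1a and Hspa1b added, the block without replicate 1, and the block with no fold threshold each called 1 of 10 chaperone genes, Ahsa1, where the fit without the block called 0. With each library left out in turn, with or without the block, the count was 0 to 2, the 2 being Ahsa1 and Hspa1a without Chd8 siRNA replicate 3. Ahsa1 was called in all 6 such fits with the block, which describes the selecting difference, and in the edgeR fits of all libraries the block changed no other call of the 10 genes. Over all genes, in Chd8 siRNA against control, Tsc2 siRNA against control, and Chd8 siRNA against Tsc2 siRNA, the block gave 87, 63, and 36 calls (the same with Hspa1a and Hspa1b added), 105, 128, and 136 without replicate 1, and 169, 104, and 61 with no fold threshold. DESeq2 gave 9, 6, and 5 and, with the block, 133, 115, and 103, no count filter gave 2 and 1 in the first and second, and leaving out single libraries gave 0 to 81, 0 to 131, and 0 to 130, the highest with the block and without control replicate 1, Tsc2 siRNA replicate 1, and Tsc2 siRNA replicate 1. Of chaperone network genes, 1 or 2 were called with the block in Chd8 siRNA against control (2 with DESeq2, Ahsa1 and Fkbp4, and 2 with no fold threshold, Ahsa1 and Bag6, and 0 to 2 with single libraries left out), and in Chd8 siRNA against Tsc2 siRNA 1, Bag6, without replicate 1 or with no fold threshold, and 0 to 1 with single libraries left out. The cause of these changes was not tested. DESeq2 with the block put Ahsa1 past the FDR, below 1.5-fold, in Tsc2 siRNA against control (adjusted p = 0.0134) and in Chd8 siRNA against Tsc2 siRNA (0.0382).

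The sign of small, uncalled log2 fold changes was not stable, and the cause was not tested. From the highest transcript only, Hsph1 was at 0.32 and Hsf1 at 0.28 in Chd8 siRNA against control, Hsph1 at 0.83 in Tsc2 siRNA against control, and Hsf1 at 0.25 between the knockdowns, where Hspa1a was at −0.10 with the block, −0.19 with limma-voom, −0.098 with DESeq2 and the block, and −0.27 with the block without replicate 1. In this last fit Hsf1 was at 0.11 in Chd8 siRNA against control and Stip1 at −0.0038 between the knockdowns. With single libraries, or all 3 libraries of number 1, left out, the log2 fold change in Chd8 siRNA against control ran from −0.12 to 0.020 for Hsp90aa1, −0.37 to 1.24 for Hspa1a, −0.15 to 1.13 for Hspa1b, −0.23 to 0.12 for Hsf1, and −0.027 to 0.18 for Stip1. In Tsc2 siRNA against control it ran from −0.16 to 1.19 for Hspa1a, −0.23 to 0.064 for Hsph1, −0.10 to 0.28 for Dnajb1, −0.066 to 0.30 for Hsf1, and −0.041 to 0.16 for Stip1. Between the knockdowns it ran from −0.85 to 0.69 for Hspa1a, −0.59 to 0.35 for Hspa1b, −0.28 to 0.025 for Hsph1, −0.066 to 0.23 for Dnajb1, and −0.065 to 0.074 for Stip1. Ahsa1 kept its sign in every alternative run. In Chd8 siRNA against control this describes the selecting difference, and the other comparisons share libraries with it. The alternatives with Hspa1a and Hspa1b added, without replicate 1, and with the block and no fold threshold were chosen after seeing the data. With a CPM minimum of 1 or 50, 4 or 2 of the 5 genes named as nearest to Ahsa1 were again among the nearest 5. Each group had 3 libraries, and the targeted gene stayed at 0.409 to 0.737 of its same-number control after Chd8 siRNA and at 0.603 to 0.937 after Tsc2 siRNA.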

Other observations

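The 12 immediate early genes, which rise within minutes of stimulation and can respond to handling of cells, were listed beside the chaperones. With the replicate block 0 of 12 were called in Chd8 siRNA against control and 2 of 12 in Tsc2 siRNA against control (edgeR's quasi-likelihood test, FDR of 0.05 and 1.5-fold), where 0.535% and 0.387% of all tested genes were called, and without the block 0 in both. Dusp1, a phosphatase gene of MAP kinases, rose by a log2 fold change of 0.63 ± 0.11 (SE) in Tsc2 siRNA against control with the block (adjusted p = 0.0171). Fosl1, a subunit gene of the AP-1 transcription factor, fell by 1.08 ± 0.23 on the log2 scale in the same comparison (adjusted p = 0.0418). In Chd8 siRNA against control the log2 fold changes were 0.29 ± 0.11 for Dusp1 and −0.60 ± 0.23 for Fosl1, and neither was called. These names were chosen after their values were seen. The summed level of the 12 genes was 1138 to 1348 CPM in control, 1216 to 1559 CPM in Chd8 siRNA, and 1377 to 1549 CPM in Tsc2 siRNA libraries.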
